A study of Bos taurus with 68 samples.

Results

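Solute carriers are the membrane proteins that move bile acids, sugars, amino acids, fatty acids, metals, ions, vitamins and nucleosides into and out of cells and organelles. Their clones on a bovine cDNA array were found by gene symbol: every clone whose platform symbol, updated through its gene identifier, starts with SLC and a family number, or with SLCO. This gave 88 of 5693 listed clones. One of them names several genes and was not used, which left 87 clones of 68 genes in 35 families. Of these, 79 clones entered the tests, which asked that no day have fewer than 3 cows with a value, and 73 were measured in every cow and day of the larger table.

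The study followed liver RNA of 5 cows, numbered 6934, 6983, 7079, 7186 and 7188, on days -65, -30, -14, 1, 14, 28 and 49 relative to calving. Each liver sample was hybridised against a reference standard RNA, whose tissue of origin the labels do not state, on a pair of arrays with exchanged dyes. The cows were sampled repeatedly, with no day 49 sample of cow 6983 analysed here. No treatment is given in the labels, and the breed and age of the animals are not given there either. The larger of 2 deposited tables held 30 cow-days, in which all 5 cows had days -65, -30, 1 and 28, but 4 had day 49 and only 3 had day -14 or day 14.

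In the liver the carriers sit at the start and end of most metabolic routes. Hepatocytes draw bile acids from portal blood with the sodium-coupled SLC10A1 and other organic anions with SLCO carriers, and they export glucose, made in the ruminant liver mainly from propionate and other non-sugar precursors, through facilitative transporters of the SLC2 family. The SLC25 family links cytosol and mitochondrion, where SLC25A20 admits the acylcarnitines that are oxidised when body fat is mobilised around calving. Iron leaves macrophages and hepatocytes through SLC40A1, ferroportin.

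All values below are log2 ratios of liver over reference, so 0 is the median clone of an array and 1 is a 2-fold difference. The direction is only likely: it assumes that Cy5 was divided by Cy3, and with the opposite ratio all signs would reverse, those of changes over time included. The 2 arrays of a pair opposed each other, by a correlation below 0 across clones, in 25 of 30 cow-days. These correlations ran from -0.65 to 0.22, with several of the opposed pairs near 0. In the smaller table they ran from -0.79 to -0.61. The number of arrays limits the precision, and no signal intensities were used. A level is the ratio of a clone to the reference and does not rank transcripts by abundance, so levels of different genes stand side by side as ratios only and those of several clones of 1 gene to show where they disagree. Of the hepatocyte markers, 4 of 5 tested genes were higher in liver, transferrin (TF) at 3.78 ± 0.29 (SD, n = 5 cows), SLC10A1 at 3.78 ± 0.38, ASGR2 at 2.46 ± 0.54 and ASS1 at 0.61 ± 0.33, while APOA1 lay at 0.06 ± 0.21. In whole tissue a change in the number of cells of a type and a change in RNA per cell cannot be told apart.

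Liver and reference differed for 47 of 79 tested carrier clones, and more were higher in liver than lower. Of the 79, 32 (40.5%) were higher in liver and 15 (19.0%) lower by limma's moderated test on the 5 cow means with Benjamini-Hochberg adjusted p under 0.05, against 22.3% higher and 25.2% lower among all 5280 tested clones. The other 32 did not pass. The median carrier level was 0.07 and the median size of the level 0.33, against -0.01 and 0.23 for all clones. At least 2-fold above the reference in each of the 5 cows were 5 carrier clones (6.33%, against 2.84% of all clones), those of SLC10A1, SLC29A1 (both clones), SLC40A1 and SLCO2B1. At least 2-fold below it in each cow were 2 (2.53%, against 2.46% of all clones), those of SLC1A3 and SLC25A5. These 7 clones passed the test under each of 14 alternative settings, and 29 of the 47 clones past the threshold did, 17 higher and 12 lower. The alternatives mostly refit the same arrays, and the 7 were chosen by their levels on them, so their passing is no separate support.

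**Figure D1:**
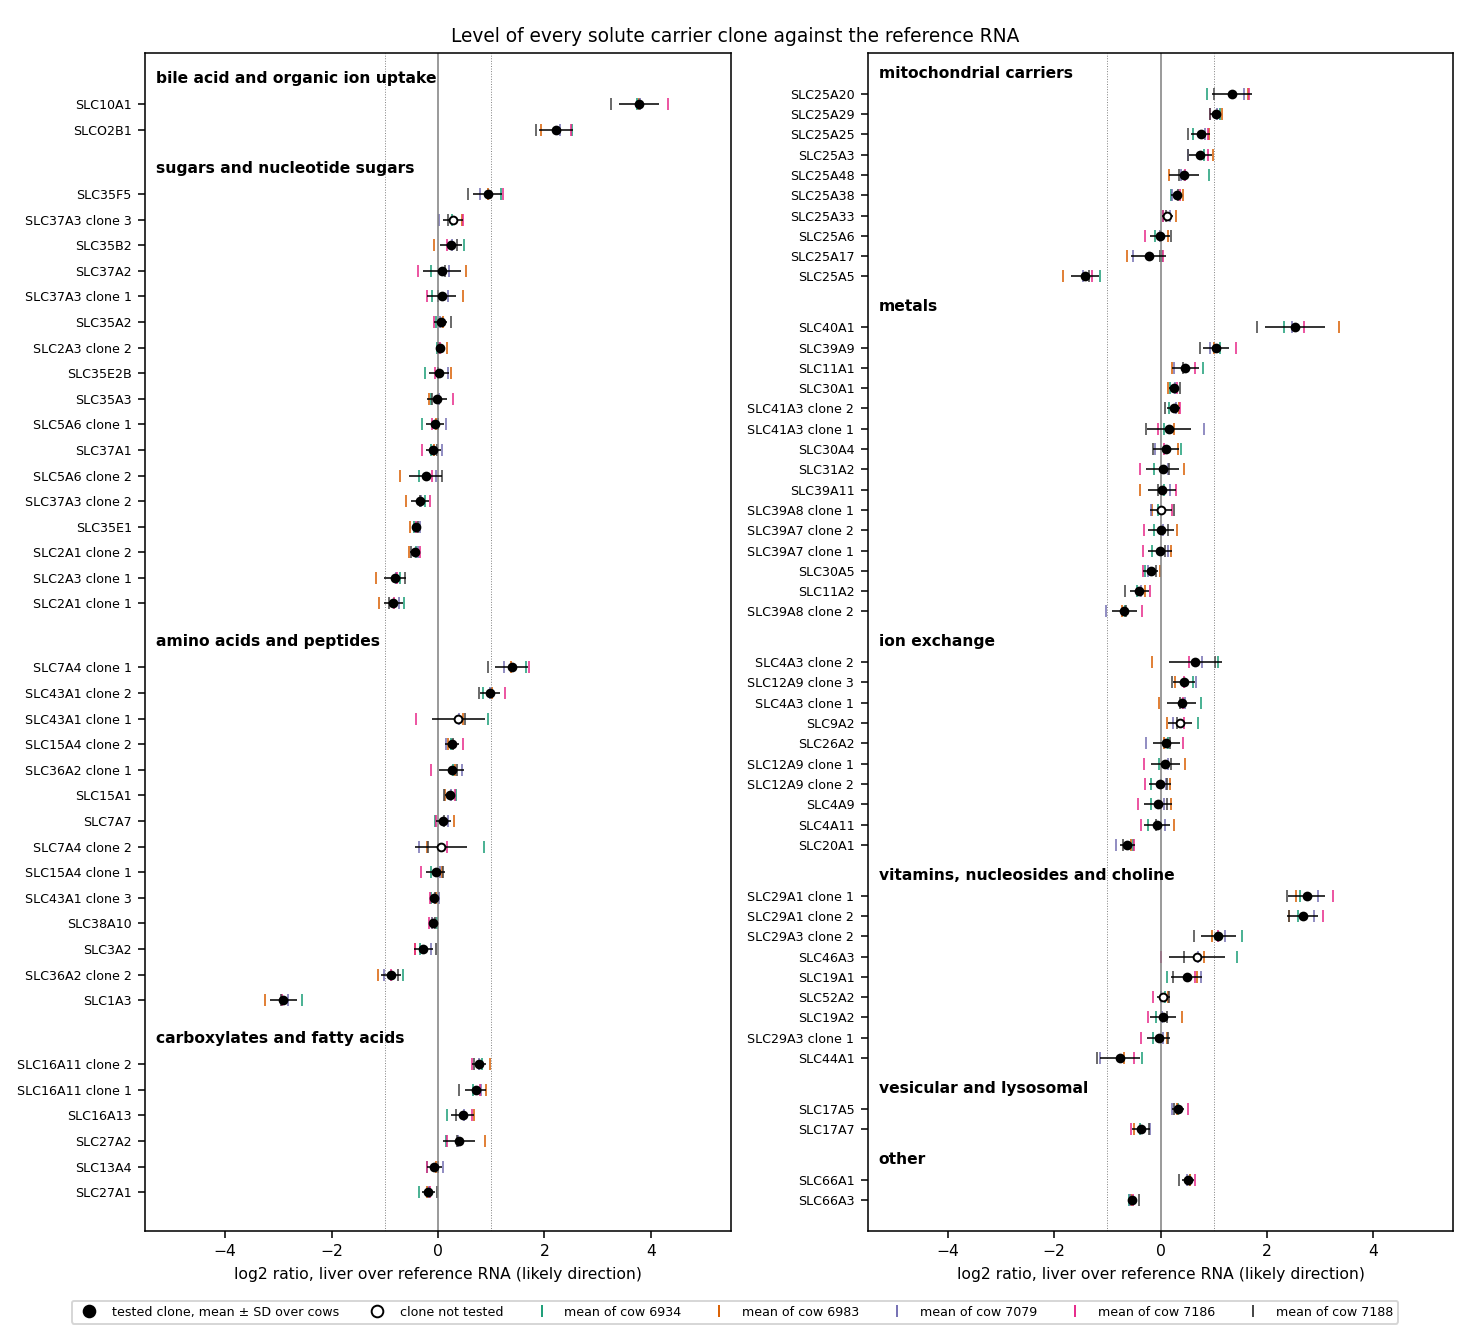
Level of each of the 87 solute carrier clones, grouped by what the family moves. The x axis is the log2 ratio of liver over reference RNA in the likely direction, points are means with SD over 5 cows, coloured ticks the means of single cows, open points clones that were not tested, and dotted lines mark 2-fold. SLC10A1 lies farthest above 0 at 3.78 and SLC1A3 farthest below at -2.91, while most clones lie between -1 and 1.

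Both clones for uptake of bile acids and organic anions were well above the reference. SLC10A1, the sodium-coupled bile acid importer of the hepatocyte's blood side, had cow means of 3.73 in cow 6934, 3.77 in 6983, 3.79 in 7079, 4.33 in 7186 and 3.25 in 7188. All 30 cow-days lay above 0, between 2.15 and 5.33, and the mean level of 3.78 is a 13.7-fold ratio (limma adjusted p = 5.43e-13). SLCO2B1, a carrier of organic anions such as steroid sulfates, had cow means of 2.52, 1.93, 2.30, 2.49 and 1.85 in the same order of cows. It too was above 0 in 30 of 30 cow-days, at a mean of 2.22 ± 0.31 (SD, n = 5 cows) or 4.66-fold.

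Among carriers of vitamins, nucleosides and choline, 4 of 7 tested clones were higher in liver (57.1%, against 22.3% of all clones). Lower was 1 clone (14.3%, against 25.2% of all clones), and the median level was 0.49. SLC29A1, the equilibrative nucleoside transporter of the cell surface, had cow means of 2.62 in cow 6934, 2.54 in 6983, 2.96 in 7079, 3.23 in 7186 and 2.37 in 7188 on its clone 1. Its clone 2 gave 2.59, 2.41, 2.89, 3.06 and 2.41 in the same order, so both clones put cow 7186 highest and cow 7188 lowest or level with 6983. Their mean levels were 2.75 ± 0.35 and 2.67 ± 0.29 (SD, n = 5 cows). SLC29A3, the related transporter of lysosomes, was higher in liver on clone 2 (1.08 ± 0.33) and at -0.04 ± 0.21 on clone 1, which did not pass. The folate carrier SLC19A1 was higher at 0.49 ± 0.29, the thiamine carrier SLC19A2 lay at 0.04 ± 0.24 and did not pass, and SLC44A1, a choline carrier, was lower at -0.77 ± 0.38.

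Of 14 tested metal carriers, 5 were higher (35.7%, against 22.3% of all clones) and 2 lower (14.3%, against 25.2%). The median level was 0.07. SLC40A1, the iron exporter ferroportin, had cow means of 2.33 in cow 6934, 3.36 in 6983, 2.47 in 7079, 2.69 in 7186 and 1.82 in 7188. Its 30 cow-days spread from 0.41 to 4.20, all above 0, and its residual SD of 1.08 compares with a median of 0.39 over the tested carriers. Macrophages express SLC40A1 strongly, and 13 of 14 clones for Kupffer cell and macrophage markers were also higher in liver, up to 3.12 for C1QB, and only CD163 at 0.05 did not pass; their part in its level was not tested. SLC11A1, a metal carrier of phagosomes, was higher at 0.46 ± 0.25, though below 0 with liver in Cy5 alone, and the iron importer SLC11A2 was lower at -0.40 ± 0.18.

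The zinc carriers did not lie on one side. SLC39A9 was higher at 1.04 ± 0.25 (SD, n = 5 cows) and SLC30A1, which exports zinc, at 0.25 ± 0.10, whereas SLC39A8, an importer of zinc and manganese, was lower on clone 2 at -0.69 ± 0.24. SLC30A4, SLC30A5, SLC39A11 and both clones of SLC39A7 lay between -0.19 and 0.11 and did not pass. The copper carrier SLC31A2 lay at 0.04 ± 0.31 and did not pass. SLC41A3, a magnesium carrier, passed on clone 2 at 0.25 ± 0.12, though below 0 with liver in Cy5 alone, and not on clone 1 at 0.16 ± 0.41.

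Of 9 tested mitochondrial SLC25 carriers, 6 were higher (66.7%, against 22.3% of all clones) and 1 lower (11.1%, against 25.2%). The median level was 0.45. SLC25A20, which exchanges acylcarnitine for carnitine, had cow means of 0.88 in cow 6934, 1.64 in 6983, 1.56 in 7079, 1.67 in 7186 and 1.00 in 7188, a mean of 1.35 ± 0.38 (SD, n = 5 cows) with 28 of 30 cow-days above 0. SLC25A29, a carrier of basic amino acids, had close cow means of 1.12, 1.15, 1.07, 0.92 and 0.93 in the same order. The phosphate carriers SLC25A3 and SLC25A25, the second of which exchanges ATP-magnesium for phosphate, were higher at 0.74 ± 0.22 and 0.75 ± 0.18. SLC25A38, a glycine carrier needed for haem synthesis, was higher at 0.30 ± 0.10. SLC25A48 was higher at 0.45 ± 0.28, but its mean over cow-days was -0.13 with liver in Cy5 and 0.98 with liver in Cy3. Levels of a single dye orientation are given as means over cow-days.

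Of the ADP/ATP carriers, the clone of SLC25A5 was lower in liver and that of SLC25A6 did not pass, and the difference between these clones was not tested. SLC25A5 was lower in liver in each cow, with means of -1.15 in cow 6934, -1.84 in 6983, -1.46 in 7079, -1.28 in 7186 and -1.35 in 7188, and 0 of its 30 cow-days lay above 0. Its mean of -1.42 ± 0.26 is a reference level 2.67-fold that of liver. SLC25A6, its close relative, lay at -0.01 ± 0.19. The peroxisomal carrier SLC25A17, at -0.22 ± 0.33, did not pass either. The ADP/ATP carriers are similar in sequence, and a cDNA clone can bind transcripts of a relative.

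Among carriers of amino acids and peptides, 5 of 12 tested clones were higher (41.7%, against 22.3% of all clones) and 3 lower (25%, against 25.2%). SLC1A3, a glutamate importer of the plasma membrane known from astrocytes, had the ratio to the reference farthest below 0, with cow means of -2.56 in cow 6934, -3.26 in 6983, -2.83 in 7079, -2.93 in 7186 and -2.95 in 7188. All 30 cow-days lay between -3.73 and -1.91, and the reference level was 7.49-fold that of liver (limma adjusted p = 1.44e-12). SLC36A2, a proton-coupled carrier of small amino acids, was lower on clone 2 at -0.89 ± 0.19 (SD, n = 5 cows), with cow means of -0.67, -1.14, -1.02, -0.87 and -0.75 in the same order. Its clone 1 passed as higher at 0.25 ± 0.23, but lay at -0.05 with liver in Cy5 and 0.54 with liver in Cy3. SLC3A2, the heavy chain that brings several amino acid exchangers to the cell surface, was lower at -0.28 ± 0.18, and its light chain SLC7A7 lay at 0.10 ± 0.14 and did not pass.

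SLC7A4, a member of the cationic amino acid family, was higher on clone 1 in each cow, with means of 1.65 in cow 6934, 1.38 in 6983, 1.24 in 7079, 1.72 in 7186 and 0.94 in 7188. SLC43A1, a carrier of large neutral amino acids, was higher on clone 2 at 0.97 ± 0.19 (SD, n = 5 cows), and its clone 3 lay at -0.07 ± 0.07 and did not pass. The proton-coupled peptide carriers were higher by little: SLC15A1 at 0.23 ± 0.10, though below 0 with liver in Cy5 alone, and SLC15A4 clone 2, for lysosomal peptides and histidine, at 0.26 ± 0.12. SLC15A4 clone 1 lay at -0.04 ± 0.18 and SLC38A10 at -0.09 ± 0.06, and neither passed.

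Of 16 tested clones for sugar carriers, 1 was higher (6.25%, against 22.3% of all clones) and 5 lower (31.2%, against 25.2% of all clones). SLC2A1, the widely expressed glucose importer, had cow means of -0.64 in cow 6934, -1.11 in 6983, -0.73 in 7079, -0.84 in 7186 and -0.92 in 7188 on clone 1, and was at -0.44 ± 0.09 (SD, n = 5 cows) on clone 2. SLC2A3, the high-affinity glucose importer known from neurons, had cow means of -0.71, -1.17, -0.79, -0.77 and -0.63 in the same order on clone 1, while clone 2 lay at 0.04 ± 0.07 and did not pass. No clone of SLC2A2, the main glucose carrier of hepatocytes, was among the members. The other 2 lower clones were SLC35E1 at -0.42 ± 0.08 and SLC37A3 clone 2 at -0.33 ± 0.17.

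The sugar carrier clone that passed as higher was SLC35F5, a member of the nucleotide sugar family, at 0.94 ± 0.27 (SD, n = 5 cows). The carriers that supply the Golgi with UDP-galactose (SLC35A2), UDP-N-acetylglucosamine (SLC35A3) and the sulfate donor PAPS (SLC35B2) lay at 0.05, -0.02 and 0.24 and did not pass. Neither did SLC35E2B at 0.02, the sugar phosphate exchangers SLC37A1 at -0.09, SLC37A2 at 0.08 and SLC37A3 clone 1 at 0.07, or the clones of SLC5A6, which carries biotin and pantothenate although its family also holds the sodium-glucose carriers, at -0.06 and -0.23.

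Of 6 clones for carboxylates and fatty acids, 4 were higher (66.7%, against 22.3% of all clones) and 0 lower (against 25.2%). The median level was 0.43. The monocarboxylate carrier SLC16A11 gave 0.71 ± 0.20 and 0.77 ± 0.13 (SD, n = 5 cows) on clones 1 and 2, and SLC16A13 gave 0.46 ± 0.22. SLC27A2, a very long chain acyl-CoA synthetase that also takes part in fatty acid uptake in liver, was higher at 0.39 ± 0.30, with cow 6983 highest at 0.89 and cow 6934 lowest at 0.14, though just below 0 with liver in Cy3 alone. Its relative SLC27A1, known from muscle and adipose tissue, lay at -0.18 ± 0.12, and the sulfate carrier SLC13A4 at -0.07 ± 0.14, and neither passed.

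Among 9 tested ion exchangers, 3 clones were higher (33.3%, against 22.3% of all clones) and 1 lower (11.1%, against 25.2%). The median level was 0.09. The anion exchanger SLC4A3 was higher on both clones, at 0.39 ± 0.28 and 0.65 ± 0.50 (SD, n = 5 cows), but clone 1 lay at -0.18 with liver in Cy5 and 0.95 with liver in Cy3. Of the 3 clones of SLC12A9, a member of the cation-chloride cotransporter family, clone 3 passed as higher at 0.44 ± 0.20, and clones 1 and 2 at 0.09 and -0.02 did not. This clone 3 also changed sign between dye orientations, at -0.16 with liver in Cy5 and 1.03 with liver in Cy3. The phosphate importer SLC20A1 was lower at -0.63 ± 0.14. SLC4A9, SLC4A11 and the sulfate carrier SLC26A2 lay between -0.07 and 0.11 and did not pass. Of the remaining carriers, the lysosomal sialic acid exporter SLC17A5 was higher at 0.33 ± 0.12 and SLC17A7, which fills synaptic vesicles with glutamate, lower at -0.37 ± 0.16. SLC66A1, a lysosomal exporter of cationic amino acids, was higher at 0.52 ± 0.11 and SLC66A3 lower at -0.53 ± 0.08.

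The 8 clones left out of the tests had too few cows on at least 1 day: SLC7A4 clone 2, SLC43A1 clone 1, SLC9A2, SLC39A8 clone 1, SLC25A33, SLC37A3 clone 3, SLC52A2 and SLC46A3. They were measured in 19 to 29 of the 30 cow-days. Their mean levels lay between 0.01 for SLC39A8 clone 1 and 0.69 for SLC46A3, a lysosomal carrier. SLC43A1 clone 1 lay at -1.82 on the arrays with liver in Cy5 and at 2.44 on those with liver in Cy3, so its mean of 0.38 stands for neither.

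Other clones also changed sign between dye orientations. Of the 79 tested carriers, 34 (43.0%) had mean levels of opposite sign on the arrays with liver in Cy5 and those with liver in Cy3, against 54.0% of all tested clones. Among the 47 past the threshold it was 8 clones, and among the 7 at least 2-fold from the reference in each cow it was 0. A level is the mean of both orientations, so values of opposite sign cancel in part by construction. SLC10A1 lay at 3.97 with liver in Cy5 and 3.62 with liver in Cy3, SLC1A3 at -2.98 and -2.86, and SLC25A5 at -1.29 and -1.55. SLC41A3 clone 2, by contrast, lay at -0.98 with liver in Cy5 and 1.48 with liver in Cy3, SLC11A1 at -0.64 and 1.56, SLC15A1 at -0.79 and 1.24, and SLC27A2 at 0.81 and -0.03. For SLC41A3 clone 2, SLC11A1 and SLC15A1 the averaged level is small beside the difference between orientations. For SLC27A2 the value with liver in Cy3 lay near 0.

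**Figure D2:**
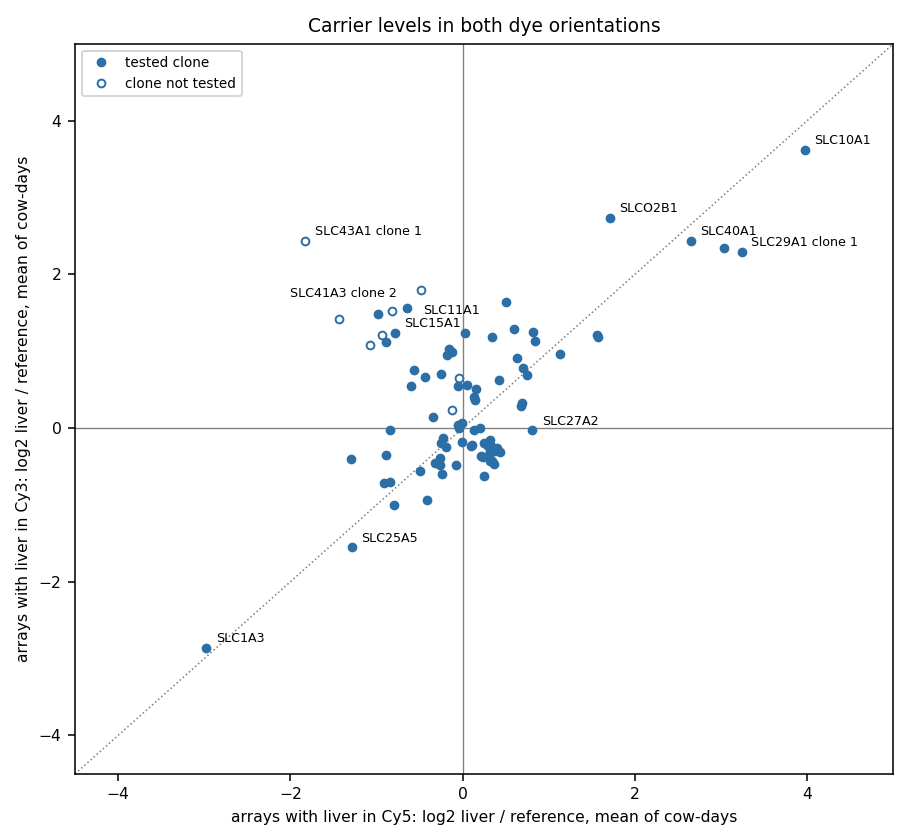
Carrier levels in each dye orientation. The x axis is the mean log2 ratio of liver over reference over cow-days with liver in Cy5, the y axis the same with liver in Cy3, filled points are the 79 tested clones, open points the 8 not tested, and the dotted line marks equal values. SLC10A1, SLC29A1, SLC40A1, SLCO2B1, SLC1A3 and SLC25A5 lie in the quadrants of equal sign, and SLC43A1 clone 1 lies at -1.82 and 2.44.

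The smaller table, from 8 other arrays of 4 cow-days, gave levels that had no part in these tests. It held cow 6934 on days -14 and 14, cow 7079 on day -14 and cow 7188 on day 14. The tables were normalised separately, so their values are set side by side without a test. Levels of the 79 carriers correlated at 0.83 between the tables (0.71 over all 5280 tested clones), as a description across clones that share the reference RNA and the cows. SLC10A1 lay between 3.25 and 5.73 in the 4 cow-days, SLC40A1 between 2.13 and 4.19, SLCO2B1 between 1.51 and 2.56, SLC29A1 clone 1 between 1.63 and 2.40 and SLC25A20 between 1.32 and 1.84. SLC1A3 lay between -6.18 and -4.37, farther from 0 than in the larger table, and SLC25A5 between -2.72 and -2.16.

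The 7 clones at least 2-fold from the reference in each cow had been chosen by their levels. All 7 kept the sign of their larger-table level in all 4 of these cow-days. Of the 47 past the threshold, 25 did, and of the 32 not past it, 11 did. The shares of all clones that kept their sign were not computed, so these counts are descriptions only. SLC7A4 clone 1, at 1.38 in the larger table, lay between -0.15 and 0.60 in the smaller one, and SLC39A9, at 1.04, between -0.56 and 0.35. SLC2A3 clone 2, at 0.04 in the larger table, lay between -2.48 and -1.94 in the smaller, on the same side as clone 1 of that gene at -1.21 to -0.91. SLC35E1, lower at -0.42 in the larger table, lay between 0.03 and 1.03 in the smaller.

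**Figure D3:**
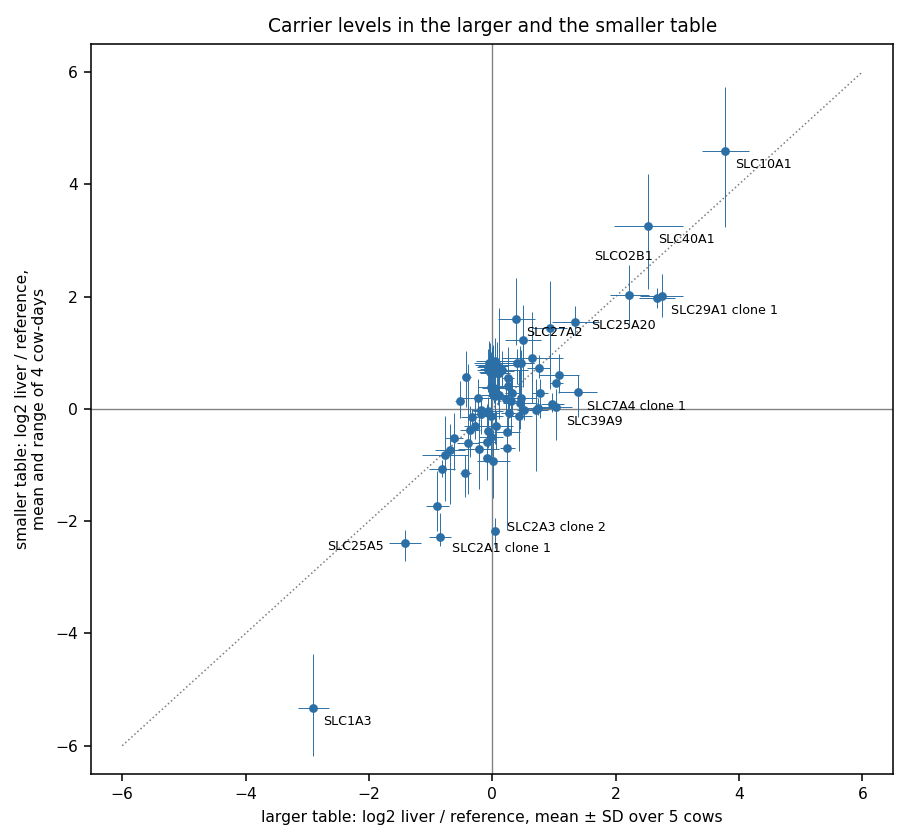
Levels of the 79 tested carriers in the larger and the smaller table. The x axis is the mean log2 ratio of liver over reference with SD over 5 cows in the larger table, the y axis the mean and range of 4 cow-days of the smaller table, and the dotted line marks equal values. The points correlate at 0.83, with SLC10A1 at the upper right, SLC1A3 at the lower left and SLC2A3 clone 2 far below the line.

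Several genes had more than 1 clone, which shows how far a level belongs to the gene or to the clone. There were 16 such genes with 35 clones, 13 with 2 and 3 with 3. Over the cow-days, the 22 pairs of clones of 1 carrier gene had a median correlation of 0.04, against 0.20 for 1016 pairs of completely measured clones of 1 gene over the whole array and -0.0047 for all pairs of completely measured carrier clones. These are descriptions over at most 30 cow-days that share cows and arrays. Only SLC29A1 (r = 0.94) and SLC39A7 (r = 0.92) had pairs above 0.5. The SLC39A7 clones lay at -0.01 and 0.01, and some clones of other genes near 0 had like values on single cow-days. In cow 7186 on day -30, for example, SLC39A7 clone 1 was at -0.78, SLC29A3 clone 1 at -0.81 and SLC15A4 clone 1 at -0.72. Whether the correlation of the SLC39A7 clones belongs to that gene was not tested. In 10 of 22 pairs the levels had the same sign.

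Clone 1 minus clone 2 was 0.07 ± 0.08 for SLC29A1 (SD, n = 5 cows) and -0.07 ± 0.17 for SLC16A11, with clone 1 of SLC29A1 the higher in 4 of 5 cows and clone 1 of SLC16A11 in 2 of 5. For SLC2A1 it was -0.41 ± 0.13, with both clones below 0. Clones of SLC7A4, SLC36A2, SLC29A3 and SLC43A1 lay more than 1 apart: clone 1 minus clone 2 was 1.33 ± 0.36 for SLC7A4, 1.14 ± 0.32 for SLC36A2 and -1.12 ± 0.47 for SLC29A3, and clone 2 minus clone 3 was 1.04 ± 0.22 for SLC43A1, each in the same direction in 5 of 5 cows. Levels of those genes are given by clone for that reason.

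The course over the 7 days was then examined. No carrier clone passed the F test over days (0 of 79 by limma, against 0.0189% of all clones, which is 1 clone and not a carrier), and the smallest adjusted p was 0.889. At an unadjusted p under 0.05 there was 1 carrier (1.27%), SLC41A3 clone 2, against 277 of all clones (5.25%). The residual SD of the median carrier was 0.39, against 0.38 for the median of all clones.

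SLC10A1 averaged 4.25 ± 0.37 on day -65 (SD, n = 5 cows), 3.95 ± 1.32 on day -30, 3.76 ± 0.37 on day -14 (n = 3), 3.41 ± 0.69 on day 1, 3.74 ± 1.00 on day 14 (n = 3), 3.56 ± 1.01 on day 28 and 3.88 ± 0.73 on day 49 (n = 4). The day 1 values were 3.74 in cow 6934, 3.59 in 6983, 3.36 in 7079, 4.08 in 7186 and 2.26 in 7188, and the day -30 values of the same cows were 2.15, 4.05, 5.04, 5.33 and 3.18. The groups overlapped, and day 1 was lower in 4 of 5 cows. Day 1 minus day -30 was -0.54 with a 95% interval of ± 1.01, day 28 minus day 1 was 0.15 ± 1.01, and lactation (days 14, 28 and 49) minus prepartum (days -65, -30 and -14) was -0.32 ± 0.67. A 2-fold lower level on day 1 than on day -30, and a 2-fold higher one on day 28 than on day 1, both lie inside these intervals.

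SLCO2B1 averaged 2.46 ± 0.43 on day -65, 2.46 ± 0.69 on day -30, 1.77 ± 0.58 on day -14, 1.73 ± 0.32 on day 1, 2.10 ± 1.14 on day 14, 2.73 ± 0.33 on day 28 and 2.01 ± 1.07 on day 49, with the same numbers of cows. On day 28 its values ran from 2.41 to 3.26 and on day 1 from 1.49 to 2.28, so these days did not overlap. Day 28 minus day 1 was 0.99 ± 0.38 (SE) and did not pass (limma adjusted p = 0.549). SLC25A20 averaged between 1.37 and 1.69 on days -65 to 28 and 0.63 ± 0.65 on day 49 (n = 4). SLC1A3 stayed between day means of -3.03 and -2.72 and SLC25A5 between -1.62 and -1.18.

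**Figure D4:**
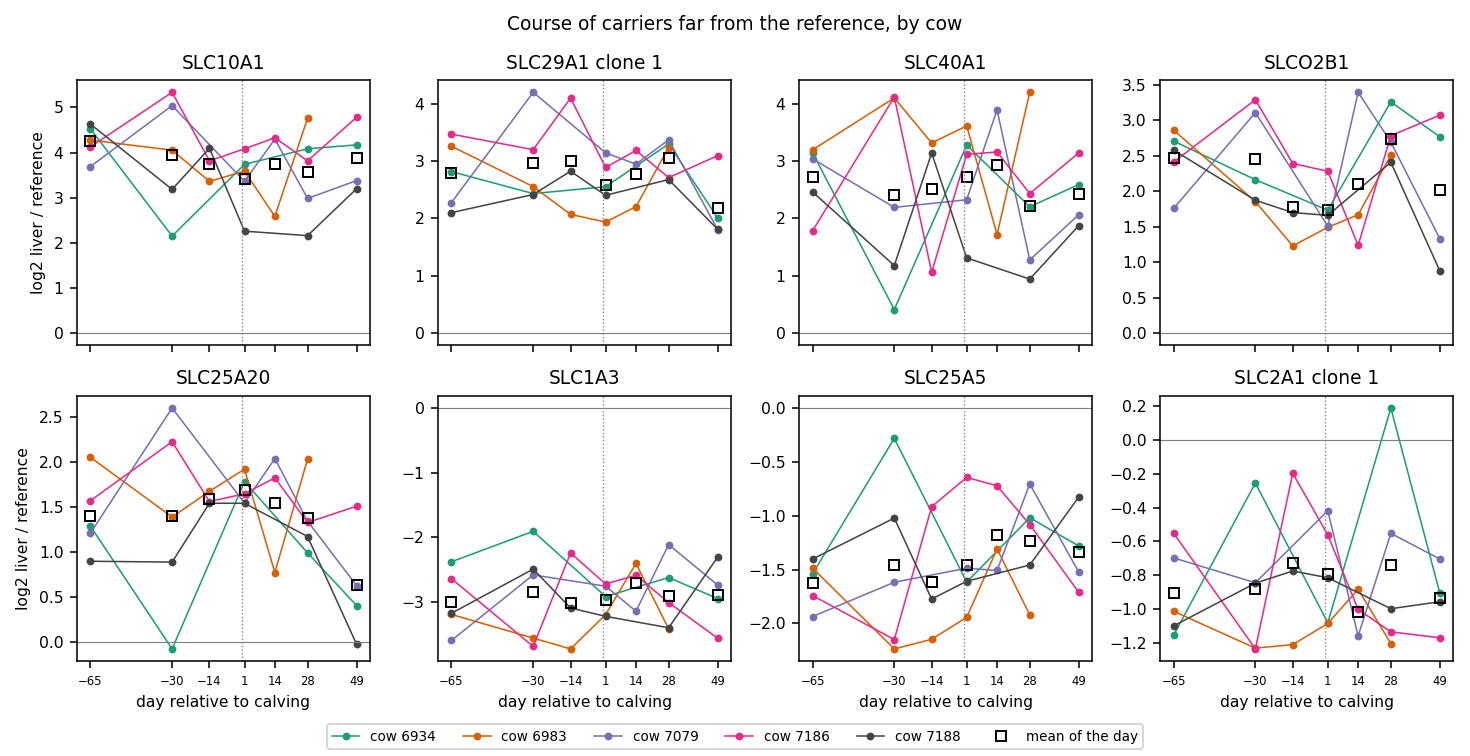
Course of 8 carrier clones over the days relative to calving. The y axis is the log2 ratio of liver over reference, each coloured line is a cow of the larger table, black squares are the mean of each day and the dotted line marks calving. SLC10A1 day means run from 3.41 to 4.25, and the lines of single cows cross throughout.

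For calving, day 1 was set against day -14 and against day -30. No carrier passed the test of day 1 minus day -14 (0 of 79, against 0.0% of all clones; 3 carriers at an unadjusted p under 0.05 by limma, 3.8%, against 2.31%). SLC30A4, which exports zinc into vesicles and in mice serves the zinc supply of milk, had 1.04 in cow 6983, 0.64 in 7186 and 0.60 in 7188 on day 1, against 0.03, -0.56 and -1.16 in the same cows on day -14. It was higher on day 1 in 3 of 3 cows without overlap, at 1.27 ± 0.37 (SE; limma unadjusted p = 0.00216, adjusted p = 0.99993). SLC38A10 had -0.10, -0.48 and -0.14 in these cows on day 1, against 0.28, 0.48 and 0.02 on day -14, a difference of -0.60 ± 0.20. It was lower in 3 of 3 cows, again without overlap, and did not pass.

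For day 1 minus day -30, 0 of 79 carriers passed, against 0.0189% of all clones (3 carriers at an unadjusted p under 0.05 by limma, 3.8%, against 8.37%). SLC11A1 had 1.24 in cow 6934, 0.26 in 6983, 0.63 in 7079, 1.21 in 7186 and 1.24 in 7188 on day 1, against 0.04, 0.54, -1.33, 0.19 and -0.03 on day -30. It was higher on day 1 in 4 of 5 cows, at 1.04 ± 0.36 (SE; limma unadjusted p = 0.00835, adjusted p = 0.445). SLC25A6 had 0.13, 0.36, 0.09, -0.27 and 0.47 in the same order of cows on day 1, against -0.14, -0.23, -0.23, -0.39 and -0.06 on day -30. It was higher in 5 of 5 cows, by 0.37 ± 0.14, with an adjusted p of 0.525 by limma.

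For day 28 minus day 1, 0 of 79 carriers passed, against 0.0% of all clones. At an unadjusted p under 0.05 by limma there were 10 carriers (12.7%), against 7.82% of all clones. SLC41A3 clone 2 had 0.07 in cow 6934, -1.05 in 6983, -1.33 in 7079, -0.20 in 7186 and -0.15 in 7188 on day 28, against 0.55, 0.28, -0.06, 0.91 and 0.70 on day 1. It was lower in 5 of 5 cows, at -1.01 ± 0.36 (SE; limma adjusted p = 0.537), but the estimate was 0.024 on the arrays with liver in Cy5 alone and -2.04 on those with liver in Cy3 alone. SLC26A2 had -0.81, -0.39, -1.78, 0.14 and -0.07 on day 28, against 1.23, -0.22, 0.26, -0.29 and 0.96 on day 1, lower in 4 of 5 cows at -0.97 ± 0.33. SLC30A4 was at -0.77 ± 0.31 here, and with liver in Cy3 alone it passed at -2.10 ± 0.43 (limma adjusted p = 0.0486). In that setting 6 of 5332 clones passed. The value of -0.77 averages both orientations, so with liver in Cy5 alone the estimate for SLC30A4 lay above 0, in the opposite direction.

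**Figure D5:**
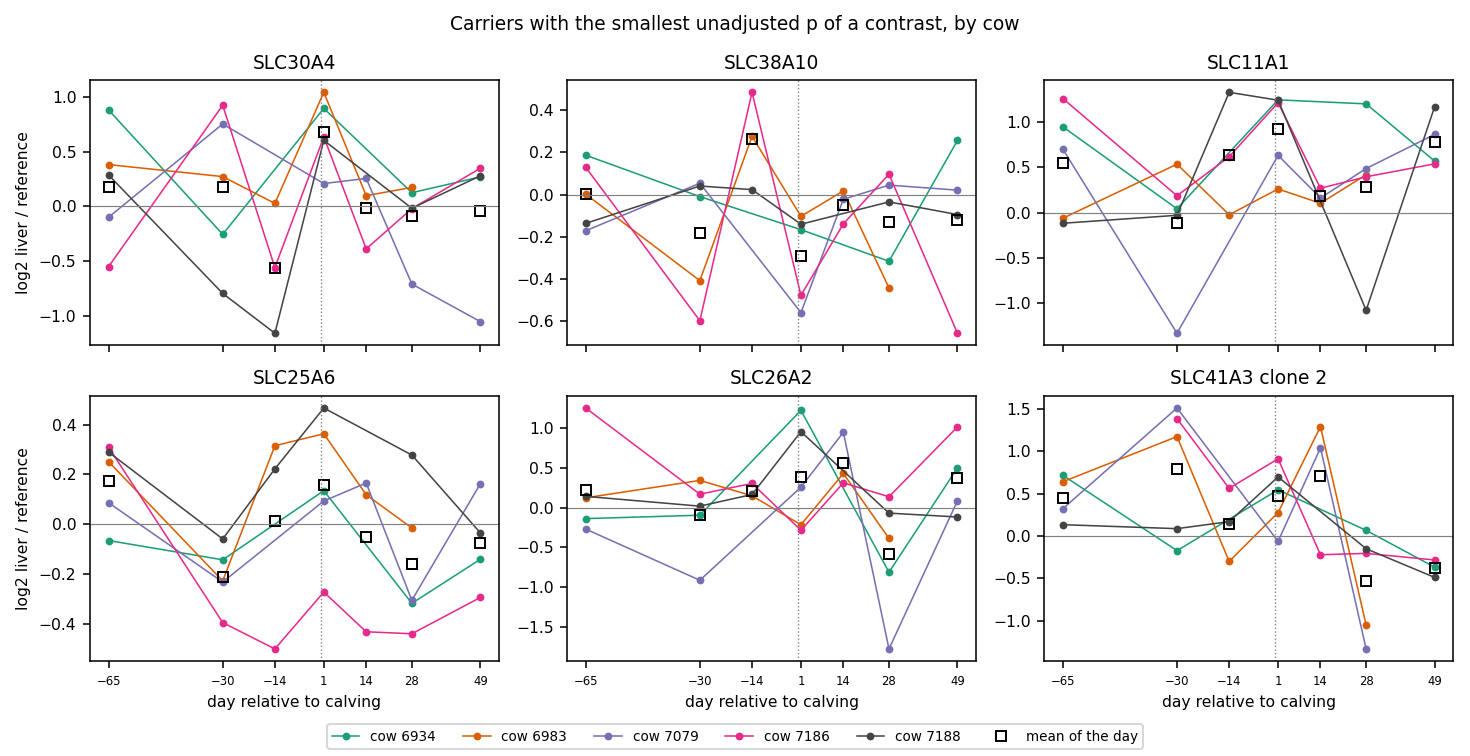
Course of 6 carrier clones, those named in the text for the smallest unadjusted p within each comparison around day 1. The y axis is the log2 ratio of liver over reference, each coloured line is a cow, black squares are the mean of each day and the dotted line marks calving. SLC30A4 has its highest day mean on day 1 at 0.68 and its lowest on day -14 at -0.56, and no comparison shown passed the adjusted threshold.

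For lactation minus prepartum, 0 of 79 carriers passed, against 0.0% of all clones (4 carriers at an unadjusted p under 0.05 by limma, 5.06%, against 3.86%). The smallest p belonged to SLC7A4 clone 1, at -0.47 ± 0.19 (SE), and SLC15A4 clone 2, at -0.29 ± 0.13. Each was lower during lactation in 5 of 5 cows, with cow differences from -0.62 to -0.12 for SLC7A4 clone 1 and from -0.40 to -0.14 for SLC15A4 clone 2. The median carrier estimate was -0.04, against -0.01 for all clones. Of the carriers, 30 lay above 0 (38.0%, against 47.8% of all clones) and 49 below. The median carrier had a 95% interval of ± 0.33 here, ± 0.58 for day 1 minus day -14 and ± 0.50 for the other comparisons. Intervals of single clones were narrower or wider than these medians.

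More carriers passed a test over cows than over days. The F test over cows passed for 10 of 79 carriers (12.7%), against 15.8% of all clones: SLC37A2, SLC4A11, SLC12A9 clone 1, SLC4A9, SLC37A3 clone 1, SLC19A2, SLC31A2, SLC27A2, SLC39A7 clone 1 and SLC25A6. The smallest adjusted p was 0.0209 by limma, for SLC37A2, whose cow means were -0.13 in cow 6934, 0.54 in 6983, 0.21 in 7079, -0.38 in 7186 and 0.14 in 7188. Cow 6983 was highest for 9 of the 10 and cow 7186 lowest for 9. The same cows were highest and lowest for 68.8% and 73.5% of the 834 clones past this test over the whole array. All but SLC27A2 of the 10 carriers had mean levels between -0.07 and 0.09, and 9 of the 10 had opposite signs in the dye orientations. No carrier passed this test without cow 6983, without cow 7186 or when arrays were not centred (0 carriers each).

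For each cow-day the slope of all clones on their mean profile was computed, and it ran from 0.589 for cow 6934 on day -30 to 1.36 for cow 7186 on day -30. Over the 30 cow-days, which share cows and the reference, SLC40A1 correlated with this slope at 0.70, SLC10A1 at 0.66, SLCO2B1 at 0.47 and SLC29A1 clone 1 at 0.47, and the low clones of SLC25A5 and SLC1A3 at -0.74 and -0.64. SLC10A1 had its lowest value of 2.15 and its highest of 5.33 on the same cow-days as the slope. Clones far from 0 weigh most in the slope, so the sign of their correlation with it follows from its construction. Whether the slope belongs to the arrays or to the liver samples cannot be told apart, and its part in the course of SLC10A1 was not tested.

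The clones whose course was most like that of SLC10A1, by Pearson correlation over 30 cow-days, were those of SORD (sorbitol dehydrogenase, r = 0.91), NUPR1 (a nuclear stress protein, r = 0.86), MGC127133 (r = 0.83), TGOLN2 (a trans-Golgi protein, r = 0.83) and EPAS1 (a hypoxia-inducible factor, r = 0.82). Their levels lay above the reference, between 1.07 for TGOLN2 and 2.90 for SORD. Only the mean of each clone was removed, so these correlations hold differences between cows as well as between days. The part of the slope described above in them was not tested. The carrier most like it was SLC40A1 at 0.70, then SLC43A1 clone 2 at 0.66 and SLC7A4 clone 1 at 0.64.

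Genes that work with the carriers were few on the array. Of the sodium pump that drives SLC10A1, the beta subunit ATP1B1 was lower in liver at -1.83 ± 0.41 (SD, n = 5 cows), and ATP1B3 lay at 0.08 ± 0.17 and did not pass. Basigin (BSG), the chaperone of monocarboxylate carriers, was higher at 0.84 ± 0.50, and the scaffold PDZK1 at 0.52 ± 0.26. Of the export pumps that pass bile constituents on, ABCC2 was higher at 2.60 ± 0.34 and ABCG2 at 1.33 ± 0.33, and ABCC3 lay at 0.07 ± 0.46 and did not pass. None of these 7 clones passed the test over days, the smallest unadjusted p being 0.0321 for ABCC3. No clone of the lists for bile acid synthesis, nuclear receptors or glucose release was tested.

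Markers of other liver cells gave the setting of these levels. All 8 clones for stellate cell and fibroblast markers were lower in liver, with a median of -3.13. Kupffer and macrophage clones had a median of 1.61, endothelial clones of 0.80 (3 of 5 higher), bile duct clones of -0.06 (0 of 4 higher, 1 lower) and lymphocyte and neutrophil clones of 0.78 (3 of 3 higher). No marker clone passed the test over days at the adjusted threshold. At an unadjusted p under 0.05 by limma were 5 of 14 Kupffer and macrophage, 2 of 5 hepatocyte and 2 of 8 stellate clones. The other marker lists had 0, and the share of all clones was 5.25%. The part of these cells in the carriers' levels was not tested.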

How the data were processed

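Liver RNA of 5 cows was hybridised against a reference standard RNA on 2-colour cDNA arrays. Per the labels, arrays were scanned with a Scanarray 4000 and quantified with GenePix 4.0, and each deposited spot value is a log2 ratio between the dyes. How background and flagged spots were handled, and any normalization, is not given in the sources used here. Each of 60 arrays of the larger table was centred on its median (-0.95 to 0.64), arrays with liver in Cy3 had their sign turned, and the 2 spots of a clone (r = 0.75) and the exchanged pair were averaged. The smaller table (8 arrays) was treated alike and not tested.

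Fits used limma 3.58.1 in R 4.3.3 over all 5280 clones with at least 3 cows per day, with Benjamini-Hochberg adjustment, a 2-sided threshold of 0.05, and day and cow as fixed terms (19 residual degrees of freedom). The cow block rests on repeated sampling of the same animals; deviations from the day means correlated at 0.14 within a cow and -0.03 between cows. Levels were tested against 0 over 5 cow means, so the reference has no spread of its own. Symbols came from the platform's annotation, updated for 5591 clones. Members, role lists, marker lists and tests were chosen with earlier results of these data known. Named with values were SLC10A1, the 8 highest and 8 lowest levels, clones past a test, those with the smallest p of the day test and each contrast, and every gene with several clones. The 5 clones with a course most like that of SLC10A1 were found by correlation over cow-days. Arrays allow no count of molecules, and 5030 rows of the larger table without a listed clone were left out.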

Additional observations from a re-analysis of the deposited data

Results flagged for a closer look

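Within single days, 6 of 105 groups of cows looked at among the named carriers had 1 cow far from the others by Dixon's 95% criterion, and chance alone flags about 1 in 20 groups. SLC29A1 clone 1 on day 49 was highest in cow 7186 at 3.09, and the other 3 cows lay between 1.81 and 2.01. SLC26A2 on day -65 was highest in cow 7186 at 1.26. SLC30A4 was lowest in cow 7079 on day 28 at -0.71 and on day 49 at -1.05. SLC15A4 clone 2 was highest in cow 7079 on day 1 at 0.43 and on day 28 at 0.57. The remaining cows of each such day were nearer to each other than to the cow named.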

How the results depend on the processing

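Between 41 and 60 carriers passed the level test under the alternatives, against 47 as reported. Levels changed sign in 1 dye orientation for 8 clones, here as means over cows: with liver in Cy5 alone SLC11A1 was at -0.63, SLC12A9 clone 3 at -0.13, SLC15A1 at -0.80, SLC25A48 at -0.13, SLC36A2 clone 1 at -0.00019, SLC41A3 clone 2 at -1.01 and SLC4A3 clone 1 at -0.18, and with liver in Cy3 alone SLC27A2 was at -0.027. Of the other level values, 45 lost the threshold in an alternative, 45 moved by more than the spread between cows and 991 did neither. The count of carriers past the cow effect (10) was 31 with array weights and 0 with arrays not centred, with liver in Cy5 alone, with both tables joined or without the cow-days whose arrays did not oppose. It ranged from 0 to 10 with 1 cow left out. Over all clones array weights gave 2035 for the cow effect (834 as reported) and 261 for the day effect (1 as reported), and the 261 held 0 carriers. The carriers past the tests over days stayed at 0 without the cow as a replicate block, with cow as a random replicate block and with any 1 cow left out, and only day 28 minus day 1 with liver in Cy3 alone gave 1, SLC30A4. With liver in Cy5 alone the day 28 minus day 1 estimate lay above 0 for SLC30A4, and was 0.024 for SLC41A3 clone 2. When arrays were not centred the median of all clones moved from -0.01 to 0.14 for lactation minus prepartum and from -0.06 to 0.07 for day 1 minus day -30. The causes of these changes were not tested.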
